A study of Rattus norvegicus with 4 samples.

Results

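The genes described here are the expressed Zfp zinc finger genes of rat embryonic stem cells (ESCs). They were chosen by symbol (Zfp followed by a digit), as protein-coding genes outside chromosomes X and Y, and by an abundance of at least 200 raw counts summed over the 4 libraries of the study. The rule took 138 of the 34773 genes in the table. The table lists 260 Zfp symbols, of which 9 lie on chromosome X and 113 of the other 251 were under 200 counts, 23 of these with no count in any library. Since 3 of the 4 libraries are from knockout cells, the summed count gives the knockout cells more weight than the control. The contrast between the genotypes did not enter the rule, but a gene that was high in the subclones alone could still pass it.

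Zfp is the rodent symbol for proteins with zinc-coordinating modules, in most of them tandem C2H2 fingers that each contact a few bases of DNA. Many of these proteins carry a KRAB box, which recruits the corepressor TRIM28 (KAP1) and with it the histone methyltransferase SETDB1 and heterochromatin protein 1. In ESCs this machinery keeps endogenous retroviruses silent and protects the methylation of imprinted loci. Other members bind RNA or bring chromatin complexes to genes. The annotation class deposited with the table placed 110 members in the zf-C2H2 family, 2 in ZBTB, 2 in zf-CCCH and 24 in no transcription factor family.

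The 4 poly(A) RNA libraries comprise 1 of WT cells, the rat ESC line DA-5-3GFP, and 3 of Thop1-KO cells, each of these made from a different subclone (#1, #2 and #3). Thop1 encodes thimet oligopeptidase, a cytosolic enzyme that cuts short peptides. The cells of all 4 libraries carry the Rex1-GFP reporter, and the subclones were made from the reporter line with Cas9. The study's methods describe DA-5-3 as diploid and grown on feeder cells in 2i/LIF medium, whereas the description deposited with the data names haploid ESCs. Each subclone is 1 clone with 1 library and the WT has a single library, so a difference between the genotypes cannot be told apart from a difference of that one WT culture from the others. The gene for the reporter, Rex1, is also named Zfp42. No row of the table carries that symbol, and it was not analysed here.

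The counts on genes summed to between 15405499 (WT) and 17936544 (Thop1-KO #3). Thop1 itself had 5500 counts in the WT and 1843, 1635 and 2680 in the subclones, a log2 fold change of -1.66 (SE 0.289, edgeR adjusted p = 0.0187). Of the ESC markers, 10 of 10 were measured, and they had summed levels of 9770 CPM (normalized counts scaled to library size) in the WT and 9360, 7750 and 9870 in the subclones. That sum is mostly Pou5f1, Klf2 and Utf1, and 4 of the 10 were called: Esrrb (log2 fold change 4.30), Fgf4 (3.37) and Tfcp2l1 (2.89) rose and Utf1 fell (-1.51). The 11 fibroblast markers in the table summed to 260 CPM in the WT and 440, 873 and 572 in the subclones, with Dcn, Thy1 and Lum at 0 in every library. The primitive endoderm markers summed to 965 CPM in the WT and 1390, 1690 and 1990 in the subclones. Most of these sums came from Col1a1 and Lama1, and the single markers did not all go one way: the subclone mean was above the WT in 7 fibroblast and 6 endoderm markers and below it in 1 and 4. Of the 8 markers tested in each list, edgeR called 1 fibroblast marker (Col5a1, higher) and 0 endoderm markers (3 and 5 at an unadjusted p-value under 0.05), and DESeq2 called 2 and 1. The fibroblast and endoderm sums were lower in the WT library than in all 3 subclones, while the ESC sum of the WT lay within their range. The part of these sums in the results below was not tested. In bulk RNA, fewer cells of a type and less RNA per cell cannot be told apart.

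All 138 members passed the filter on low counts and were among the 15028 genes tested with edgeR's quasi-likelihood test, in which a gene with a Benjamini-Hochberg adjusted p-value under 0.05 over all genes is called. With 1 library against 3, the smallest p-value that an exact one-sided permutation can give is 0.25, so each adjusted p-value rests on the spread among the subclones and on the variance model. Levels within a gene are given in CPM after TMM normalization, and levels compared between genes in FPKM, which also divides by gene length. A log2 fold change is the Thop1-KO level relative to the WT. Replicates are separate subclones, and SD values are over these 3.

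In the Thop1-KO subclones 23 of the 138 Zfp genes rose (16.7%) and 3 fell (2.17%), while 112 were not called. Over all genes tested 8.62% rose and 5.17% fell. Among the 9273 other protein-coding genes outside X and Y with at least 200 counts, 11.1% rose and 5.38% fell. The members had a median log2 fold change of 0.198, with an interquartile range from -0.298 to 0.983, beside medians of 0.056 over all genes tested and 0.097 over the other protein-coding genes. With members chosen by a mean that weights both genotypes equally (at least 3 CPM, also 138 genes), the median was 0.059. An unadjusted p-value under 0.05 was reached by 50 members (36.2%), close to the 34.0% of all genes tested and the 37.0% of the other protein-coding genes. These include 24 that were not called, 14 of them fitted above 0 and 10 below. These counts depended on which subclones were compared. Without Thop1-KO #2 the same test called 40 members higher and 12 lower, and without #3 it called 7 higher and 0 lower (28 and 7 at an unadjusted p-value under 0.05), whereas without #1 it called 22 and 2. DESeq2 called 29 members higher and 4 lower, 25 of them among the 26 of edgeR, and it called more genes in all (3006 against 2072).

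**Figure D1:**
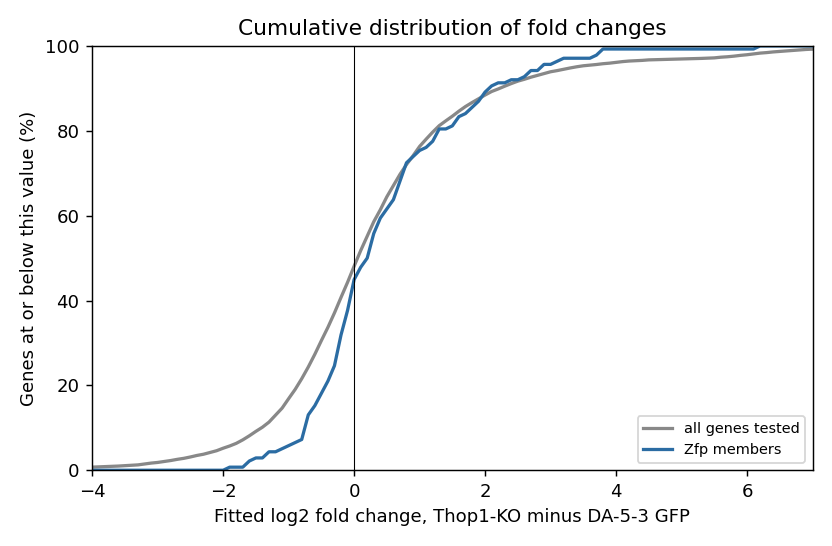
Cumulative share of genes, in percent, at or below each fitted log2 fold change (Thop1-KO relative to WT), for the 138 Zfp members and all 15028 genes tested. The member curve lies below that of all genes around 0 and is shorter at both ends, from -1.93 to 6.18, with medians of 0.198 and 0.056; only the members had to reach 200 counts.

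The single WT library lay below all 3 subclones in 61 members (44.2%), above all 3 in 37 (26.8%) and between them in 40. Over all genes tested these shares were 38.1% below and 37.6% above, and over the other protein-coding genes with at least 200 counts 41.5% and 35.4%. The summed level of the members was 3803 CPM in the WT and 4575, 4043 and 4851 CPM in #1, #2 and #3. As a share of all counts, the members took 0.367% in the WT and 0.442%, 0.433% and 0.486% in the subclones. The WT was thus the lowest library on both measures, and #3 the highest. Single genes weigh heavily in these sums. Zfp217 alone gave 24.8 CPM of the WT sum and 466, 196 and 341 CPM of those of #1, #2 and #3. The median level of the members was 11.8 CPM in the WT and 15.2, 13.5 and 15.2 CPM in the subclones. Whether the family rose as a whole was not tested.

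Sequences upstream of the start are shown for 7 of the called members: the 3 with the largest fold changes, the imprint factor Zfp57, Zfp212, which was called in every alternative tried, and 2 of the 3 that fell. Each is the 100 bases before the RefSeq start in build GRCr8, written 5′ to 3′ on the strand that RefSeq gives. Capitals mark the GC box letters GGGCGG and the CCAAT letters, on either strand.
Zfp316 (chr12:16408290-16408389, plus strand): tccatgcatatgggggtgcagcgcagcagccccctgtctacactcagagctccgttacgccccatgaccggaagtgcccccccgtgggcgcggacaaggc
Zfp526 (chr1:89935504-89935603, plus strand): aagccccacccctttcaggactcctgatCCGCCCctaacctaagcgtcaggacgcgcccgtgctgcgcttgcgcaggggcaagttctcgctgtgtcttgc
Zfp217 (chr3:179321694-179321793, minus strand): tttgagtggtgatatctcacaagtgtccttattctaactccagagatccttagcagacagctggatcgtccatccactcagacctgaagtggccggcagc
Zfp57 (chr20:1534919-1535018, minus strand): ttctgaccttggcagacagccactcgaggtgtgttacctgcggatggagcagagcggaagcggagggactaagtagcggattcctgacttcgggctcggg
Zfp212 (chr4:78254509-78254608, plus strand): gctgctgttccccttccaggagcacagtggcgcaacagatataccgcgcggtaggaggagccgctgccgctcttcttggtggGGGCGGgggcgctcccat
Zfp428 (chr1:89227342-89227441, plus strand): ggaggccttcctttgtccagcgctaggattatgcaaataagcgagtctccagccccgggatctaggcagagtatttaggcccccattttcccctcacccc
Zfp955a (chr7:13420161-13420260, minus strand): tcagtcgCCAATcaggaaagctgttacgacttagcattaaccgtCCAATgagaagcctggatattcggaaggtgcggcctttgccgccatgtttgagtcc

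RefSeq promoters were matched by symbol for 112 of the 138 members, all on the chromosome number that the deposited annotation gives, and for 23 of the 26 called. For Zfp955a and Zfp324 the RefSeq strand is opposite to that of the deposited annotation. Their matched sequence may therefore not lie upstream of the gene that was counted. In the 250 bases before the start the members had a median GC content of 57.2% and a median of 14.5 CpG pairs, against 51.2% and 5 in all 33469 promoters of the RefSeq table. GGGCGG stood on either strand in 50% of the members and 30.5% of all promoters, CCAAT in 42.0% and 34.0%, CCGGAAG, a core of the sites of ETS factors, in 11.6% and 7.27%, and TATAAA in 8.93% and 12.9%. The promoters of the RefSeq table were not filtered by count or gene type as the members were. Whether these differences are particular to Zfp genes was therefore not tested. The matched members that rose held GGGCGG in 8 of 20 (40.0%), CCAAT in 9 (45.0%) and CCGGAAG in 4 (20%), and the members that were not called held GGGCGG in 48 of 89 (53.9%), CCAAT in 37 (41.6%) and CCGGAAG in 9 (10.1%). Of the 3 that fell, 1 held CCAAT within 250 bases. In the windows printed above, Zfp526 and Zfp212 each hold 1 GC box and Zfp955a holds 2 CCAAT boxes, while the other 4 hold neither. No member was sorted by these letters, and a match is a description of the sequence alone.

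Zfp217 stood out by abundance among the members that rose. It is an oncogene product known from amplification in breast cancer, which works with CtBP and histone demethylase complexes and supports self-renewal in mouse ESCs. Zfp217 (ENSRNOG00000021787, chromosome 3, 166983220 to 166994286) was at 24.8 CPM in the WT and at 466, 196 and 341 CPM in #1, #2 and #3. All 3 subclones lay above the WT, as in 38.1% of all genes tested, and the highest of them was 2.37 times the lowest. Their mean of 334 ± 135 CPM (SD, n = 3) was 13.5-fold that of the WT. The log2 fold change was 3.75 with an SE of 0.567 (edgeR adjusted p = 0.0131). Its level per length went from 6.60 FPKM to 89.1 ± 36.3 FPKM (SD, n = 3).

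Zfp57, a KRAB zinc finger protein that binds methylated imprinting control regions and keeps their methylation through early development, was at 4.04 CPM in the WT and at 35.1, 30.8 and 24.3 CPM in the subclones. The WT lay below all subclones, as in 38.1% of all genes tested. The log2 fold change was 2.89 (SE 0.409, edgeR adjusted p = 0.0112). Zfp57 (ENSRNOG00000022730) lies on chromosome 20 from 2014170 to 2020537 and shares 117 bases with Mog on the opposite strand. Shared bases, here and below, are those of the annotated gene spans with introns, and exons were not compared. The library kit does not mark strand, so reads in bases that are exon in both genes cannot be assigned to either. Mog had 476 counts in the WT and 481, 450 and 300 in the subclones, and was not called (log2 fold change -0.44, edgeR adjusted p = 0.426). Zfp445, the other imprint factor of the list with a row in the table, fell just short of the member threshold, with 198 summed counts.

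Zfp316 had the highest fitted fold change. It had 1 count in the WT and 105, 58 and 121 in #1, #2 and #3, so its ratio of 80.5 carries a 95% counting interval from 14.3 to 3190 (exact, counting error only). In CPM these are 0.0673 against 6.26, 3.28 and 6.73 (edgeR adjusted p = 0.0147). The WT was near the lower limit of detection, while all 3 subclones were well above it. Zfp526 was at 1.55 CPM in the WT and at 20.1, 18.9 and 24.7 CPM in the subclones, 13.7-fold higher on average (edgeR adjusted p = 0.00762). It shares 280 bases with Gsk3a, a kinase gene on the other strand that also rose (log2 fold change 1.51, edgeR adjusted p = 0.027). Of the 11 members whose span overlaps a gene with at least 10 counts, 4 rose (36.4%) and 1 fell (9.09%). Of the 127 others, 19 rose (15.0%) and 2 fell (1.57%), and over all genes tested 8.62% rose and 5.17% fell. The difference was not tested.

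Among the 10 largest increases, Zfp212 varied least between subclones, at 8.21 CPM in the WT and 55.6, 48.8 and 51.8 CPM in #1, #2 and #3. Its log2 fold change was 2.66 (SE 0.318, edgeR adjusted p = 0.00769). Zfp710 was at 17.7 CPM in the WT and at 129, 100 and 145 CPM in the subclones (log2 fold change 2.82, SE 0.348, edgeR adjusted p = 0.00812). These were the 2 members called in the same direction in all 13 alternatives. The annotated span of Zfp710 on chromosome 1 (141767940 to 141870325) holds parts of Idh2, Echs1 and Fuom, and Idh2, a mitochondrial isocitrate dehydrogenase, had 4863 counts in the WT against 24489, 9367 and 21429 in the subclones (log2 fold change 1.70, edgeR adjusted p = 0.0862). Echs1 had 7 counts in the WT against 24, 238 and 643 (log2 fold change 5.14, edgeR adjusted p = 0.117). Fuom had 16 against 48, 48 and 1. The exons of Zfp710 cover 2702 bases of its span, whereas the span shares 8849 bases with Echs1 and 4043 with Idh2. How many of the shared bases are exon in both genes was not examined, and only reads in those would be ambiguous.

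Further large increases were seen in 4 genes. Zfp827, which brings the NuRD complex to telomeres in some tumour cells, was at 0.942 CPM in the WT and 14.4, 8.60 and 13.2 CPM in the subclones (edgeR adjusted p = 0.0137). Zfp236 was at 1.14 CPM against 11.7, 7.41 and 12.2 CPM (edgeR adjusted p = 0.0185). Zfp518b, a partner of the H3K9 methyltransferase G9a, was at 1.61 CPM against 7.93, 16.2 and 14.8 CPM (edgeR adjusted p = 0.027). Zfp319 was at 1.75 CPM against 8.88, 11.8 and 12.8 CPM (edgeR adjusted p = 0.0195). In each of them the WT value was below 2 CPM and the lowest subclone was above 7 CPM.

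The other 13 members that rose had smaller changes, with log2 fold changes from 1.21 (Zfp609) to 2.55 (Zfp655). They comprised Zfp655, Zfp169, Zfp623, Zfp839, Zfp263, Zfp869, Zfp326, Zfp324, Zfp24, Zfp870, Zfp106, Zfp687 and Zfp609. The calls of Zfp106, Zfp324, Zfp609 and Zfp839 held in at most 8 of the 13 alternatives, with adjusted p-values of up to 0.158. Those of the rest held in 9 (Zfp655) to 12 (Zfp263) of the 13. Several of the rest, Zfp869 among them, reached higher adjusted p-values than that in single alternatives. Of the 23, 11 had a mean in the subclones at least 5-fold that of the WT, and 4 at least 10-fold. Zfp609, which works with the cohesin loader Nipbl and the Integrator complex, showed the smallest fold among them, at 34.2 CPM in the WT and 82.8, 75.8 and 78.9 CPM in the subclones. The whole annotated span of Zfp324 lies within that of a gene of the same strand, AABR07002065.2. That gene had 1 count in the WT and 80, 113 and 65 counts in the subclones (edgeR adjusted p = 0.0124). Reads in any bases that are exon in both cannot be assigned to either.

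**Figure D2:**
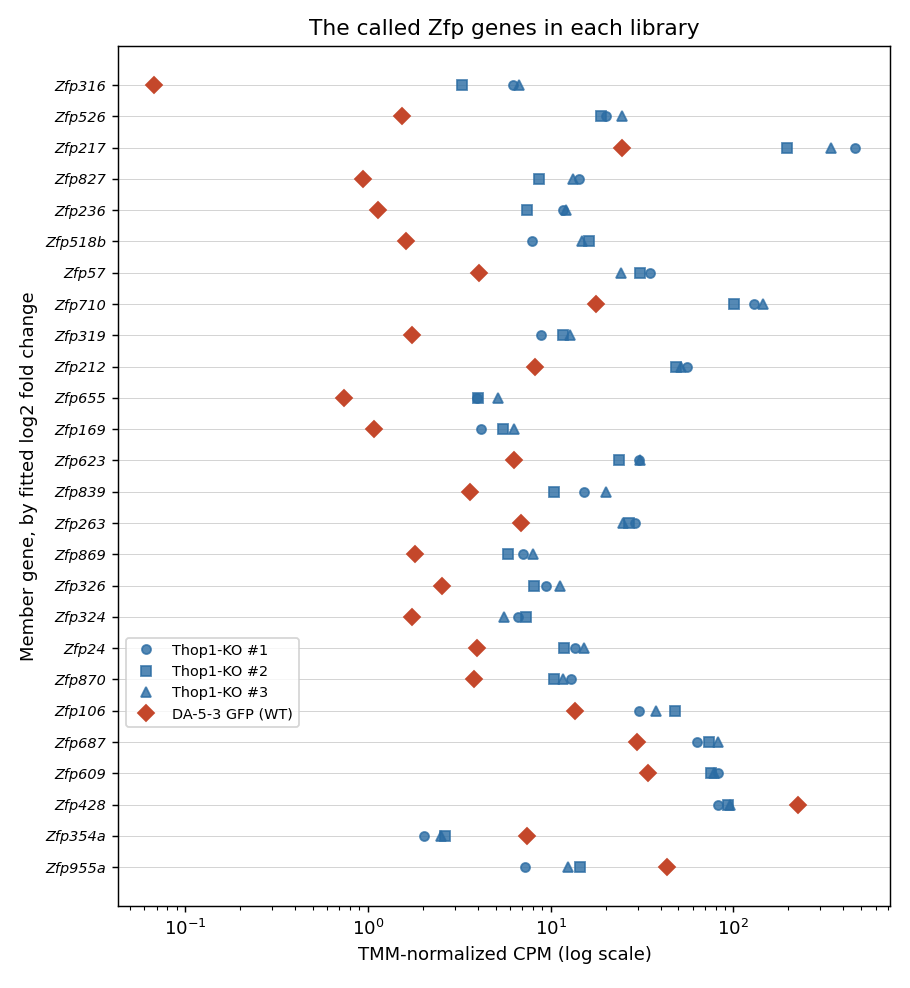
TMM-normalized CPM on a log axis for the 26 called members, 1 row per gene, with the WT (DA-5-3 GFP) as diamonds and the 3 Thop1-KO subclones as other symbols. The WT stands left of all 3 subclones in the 23 genes that rose, from Zfp316 (0.0673 CPM) to Zfp609 (34.2 CPM), and right of them in the 3 that fell.

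The 3 members that fell were Zfp428, Zfp354a and Zfp955a. Zfp428 was the most abundant, at 227 CPM in the WT and 82.0, 93.3 and 95.3 CPM in the subclones, a mean of 90.2 ± 7.20 (SD, n = 3). Its log2 fold change was -1.33 (SE 0.223, edgeR adjusted p = 0.0171). Zfp955a was at 43.5 CPM in the WT and 7.21, 14.5 and 12.5 CPM in the subclones (log2 fold change -1.93, SE 0.400, edgeR adjusted p = 0.0285). Zfp354a, first described in kidney as Kid-1, was at 7.47 CPM in the WT and 2.03, 2.66 and 2.50 CPM in the subclones (edgeR adjusted p = 0.0485). The WT lay above all subclones in each of the 3, as in 37.6% of all genes tested. The calls rest on the same values, so this position adds no separate support. Zfp354a was called in 5 of the 13 alternatives only, with adjusted p-values from 0.0113 to 0.195 across them. No count of the subclones fell to the floor of 3 counts in these genes.

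Ordered by level per length, the members spanned mean FPKM values from 0.404 to 209, with a median of 5.24, and 7 were at 50 FPKM or more. Zfp296, a partner of Klf4 in reprogramming to pluripotency, was the highest, at 188 FPKM in the WT and 216 ± 69.9 FPKM (SD, n = 3) in the subclones. Zfp93 followed at 136 FPKM in the WT and 173 ± 36.0 FPKM. Zfp296 was not called (edgeR adjusted p = 0.738), nor was Zfp93 (0.422), and the means of these neighbours in the order differed by less than the SD of Zfp296. Zfp428, Zfp217 and Zfp385a came next by their mean over the 4 libraries. Split by mean CPM into 3 sets of 46, the members held 8 that rose in the lowest set, 8 in the middle set and 7 in the highest. These shares were 17.4%, 17.4% and 15.2%, beside 8.62% over all genes tested. In each set 1 fell (2.17%, beside 5.17%).

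The list of pluripotency and its exit held 7 members, of which Zfp217 rose (14.3%, beside 8.62% over all genes tested) and the other 6 were not called. Zfp281, which represses Nanog through NuRD and acts in the exit from the naive state, was at 2.22 CPM in the WT and 5.90, 5.83 and 7.18 CPM in the subclones. Its log2 fold change of 1.5 did not pass over all genes (edgeR adjusted p = 0.0717). Zfp462 was at 14.3 CPM in the WT and 24.3, 19.6 and 23.7 CPM in the subclones (edgeR adjusted p = 0.206). Zfp706, a factor that opposes self-renewal in mouse ESCs, was at 111 CPM in the WT and 76.7, 93.1 and 75.8 CPM in the subclones (edgeR adjusted p = 0.254). In these 3 the WT lay outside the range of the subclones, as it did in 75.7% of all genes tested. For Zfp296, Zfp143 and Zfp207 it lay inside that range, and their log2 fold changes were 0.20, -0.22 and -0.41.

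Among 10 members known as partners of chromatin complexes, 2 rose (Zfp217 and Zfp687) and 8 were not called, 5 of the 10 having an unadjusted p-value under 0.05 (34.0% over all genes tested). The WT lay below all 3 subclones in 9 of the 10 (38.1% over all genes tested) and above them in Zfp592, and the median log2 fold change was 0.856. Zfp687, Zfp592 and Zfp532 bind one another and Zmynd8 in a single complex. Zfp687 was at 29.8 CPM in the WT and 62.9, 73.2 and 82.1 CPM in the subclones (log2 fold change 1.29, edgeR adjusted p = 0.0362). Zfp532 was at 51.4 CPM against 137, 64.1 and 114 CPM (edgeR adjusted p = 0.157), and Zfp592 at 42.1 CPM against 39.5, 36.1 and 37.0 CPM (edgeR adjusted p = 0.681). Differences between these 3 partners were not tested.

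Zfp219, which associates with NuRD, was just outside the threshold, at 21.4 CPM in the WT and 120, 49.5 and 89.5 CPM in #1, #2 and #3 (log2 fold change 2.01, SE 0.530, edgeR adjusted p = 0.0512). DESeq2 gave it an adjusted p-value of 0.000193. Zfp335, a subunit of an H3K4 methyltransferase complex, was at 39.1 CPM in the WT and 56.8, 70.7 and 60.5 CPM in the subclones (edgeR adjusted p = 0.138). Zfp512 and Zfp512b had log2 fold changes of 0.27 and 0.34 and were not called.

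Of 12 members that act on RNA, 2 rose (16.7%, beside 8.62% over all genes tested) and 10 were not called. The median log2 fold change was -0.07. Zfp326, a subunit of the DBIRD complex that couples splicing to transcription, was at 2.56 CPM in the WT and 9.48, 8.09 and 11.3 CPM in the subclones (log2 fold change 1.91, edgeR adjusted p = 0.0377). Zfp106, which binds RNA repeats and is needed for motor neurons and muscle, was at 13.5 CPM against 30.4, 48.2 and 37.7 CPM (log2 fold change 1.52, edgeR adjusted p = 0.044). The AU-rich element binding proteins that speed mRNA decay were not called: Zfp36 had a log2 fold change of 0.17, Zfp36l1 of -0.29 and Zfp36l2 of 0.71. Zfp598, the ubiquitin ligase that senses collided ribosomes, was close to level, at 115 CPM in the WT and 113, 107 and 118 CPM in the subclones. Zfp385a was at 225 CPM in the WT and 112, 165 and 140 CPM in the subclones (edgeR adjusted p = 0.125). Zfp638, which also helps to silence retroviral DNA and was the only member of the retroelement list, was at 10.8 CPM against 2.62, 7.81 and 6.79 CPM (edgeR adjusted p = 0.304). Zfp207, Zfp346, Zfp622 and Zfp830 were not called either, with log2 fold changes from -0.47 (Zfp830) to 0.15 (Zfp622).

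**Figure D3:**
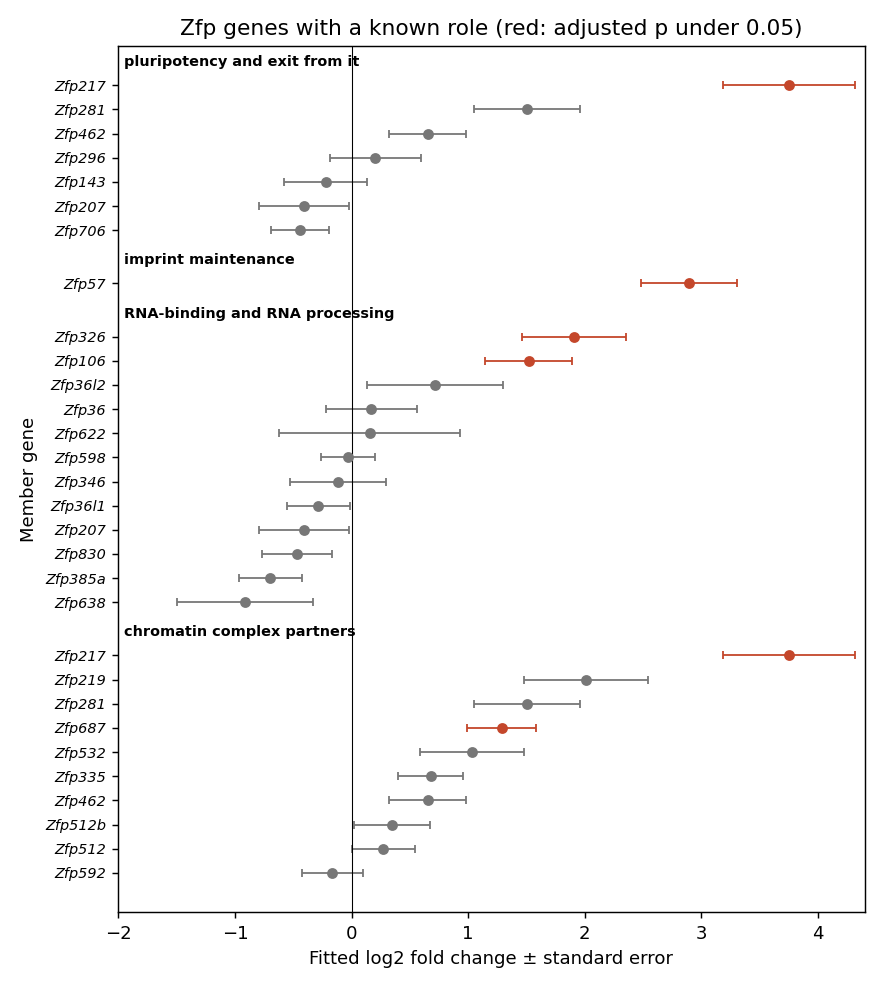
Fitted log2 fold change (Thop1-KO relative to WT) with its standard error for the members on 4 role lists; Zfp217, Zfp281, Zfp462 and Zfp207 stand in 2 lists each. Red marks the called genes, Zfp217 (3.75), Zfp57 (2.89), Zfp326 (1.91), Zfp106 (1.52) and Zfp687 (1.29), and all others are grey.

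The corepressor pathway that KRAB zinc finger proteins use was measured through 21 genes, of which 4 rose, 2 fell and 15 were not called. The shares were 19.0% that rose and 9.52% that fell, beside 8.62% and 5.17% over all genes tested. Trim28 itself was at 4706 CPM in the WT and 4006, 3835 and 4000 CPM in the subclones (edgeR adjusted p = 0.331). The genes that rose were Cbx1 (log2 fold change 1.5), Ehmt1 (1.78), Setdb1 (1.40) and Uhrf1 (1.39). Those that fell were Cbx5, the heterochromatin protein 1 alpha gene (log2 fold change -1.34, edgeR adjusted p = 0.0386), and Mphosph8, a HUSH complex subunit (log2 fold change -3.97, edgeR adjusted p = 0.0191). Mphosph8 had 100 counts in the WT and 13, 4 and 5 in the subclones. The median over the 21 was 0.03, close to that of all genes tested.

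Other zinc finger families with the same count threshold were set beside the Zfp genes without a test of the difference. Of 29 Zbtb genes 7 rose (24.1%) and the others were not called (median log2 fold change 0.703). Of 10 Zscan and Zkscan genes 2 rose (median 0.878), and of 13 Klf genes 3 rose (median 0.135), with no further call in either family. Among the Zfp genes with the zf-C2H2 class, 19 of 110 rose (17.3%) and 2 fell (1.82%). Among the 24 with no class 4 rose (16.7%) and 1 fell (4.17%). Split by exon length into 3 sets of 46, the shortest genes held 9 that rose (19.6%), the middle set 6 (13.0%) and the longest 8 (17.4%). In each set 1 fell (2.17%).

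Zfp genes lie in tandem clusters in mammalian genomes. Here 40 members had another member within 100 kb, in 16 runs. Of these 40, 7 rose (17.5%), against 16 of the 98 without such a neighbour (16.3%) and 8.62% of all genes tested. The 3 members that fell had no such neighbour (3.06% of the 98, beside 5.17% of all genes tested). No 2 called members lay within 100 kb of each other. The run with the most members was on chromosome 4 (77554269 to 77747070), with 5 members and no other gene tested. From its start Zfp282 was at 17.2 CPM in the WT and 26.1, 33.1 and 33.5 CPM in the subclones (edgeR adjusted p = 0.118). Zfp212 rose, as given above. Zfp956 was at 5.79 CPM against 19.4, 12.4 and 17.0 CPM (edgeR adjusted p = 0.0611). Zfp777 went the other way, at 48.5 CPM against 26.4, 26.1 and 32.1 CPM (edgeR adjusted p = 0.0997). Zfp746, also called PARIS, a repressor degraded through parkin, was at 16.7 CPM against 39.6, 31.8 and 39.6 CPM (edgeR adjusted p = 0.0558). The WT lay outside the subclones in all 5, as in 75.7% of all genes tested, with 1 call among them. The fitted value of Zfp777 had the opposite sign to its neighbours on both sides.

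**Figure D4:**
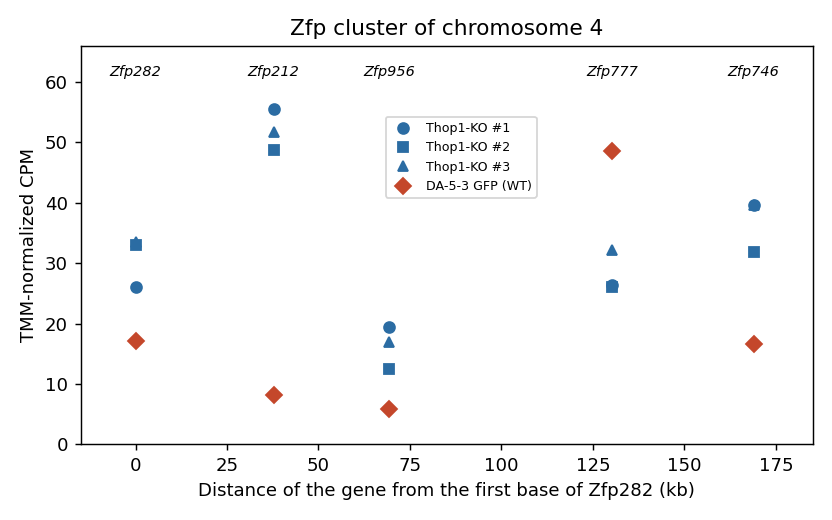
TMM-normalized CPM of the 5 members in the chromosome 4 run, plotted by the distance of each gene from the first base of Zfp282 in kb, with the WT (DA-5-3 GFP) as diamonds and the Thop1-KO subclones as blue symbols. The WT lies below the subclones in Zfp282, Zfp212, Zfp956 and Zfp746 and above them in Zfp777 (48.5 CPM).

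A run of 4 members on chromosome 1 (72338877 to 72468738), Zfp580, Zfp865, Zfp524 and Zfp628, had log2 fold changes between -1.14 and -0.56, and none was called by edgeR at an adjusted p-value. Zfp628 was the farthest from 0, at 27.3 CPM in the WT and 8.17, 15.4 and 13.7 CPM in the subclones (edgeR adjusted p = 0.102). The WT was above all subclones in each of the 4 (37.6% over all genes tested). Chromosome 1 held 33 members, of which 3 rose (9.09%) and 1 fell (3.03%). Of the 1878 genes tested on it, 7.4% rose and 5.01% fell. The median log2 fold change was -0.145 for these members, beside 0.018 for the 1878 genes. The members that rose lay on 15 of the 20 chromosomes that hold a member.

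The subclones differed among themselves. The ratio of the highest to the lowest of the 3 had a median of 1.46 over the members and was above 2 in 27 of them, 4 of which were called. It was highest for Zfp112, at 0.894, 4.53 and 3.73 CPM in #1, #2 and #3 and 2.56 CPM in the WT, a ratio of 5.06. Zfp622, a 60S ribosome maturation factor, followed at 8.41, 2.15 and 3.17 CPM with 4.11 CPM in the WT. Zfp68 was at 1.07, 3.68 and 2.62 CPM, with 7.67 CPM in the WT. Thop1-KO #3 was the highest of the subclones in 61 members and the lowest in 10, whereas #1 was the lowest in 70. Among the 23 that rose, #2 was the lowest subclone in 14 and #3 the highest in 13.

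The members with the smallest changes among the 50 of highest mean CPM were Zfp451, Zfp142, Zfp598, Zfp668 and Zfp704, with fitted log2 fold changes between -0.03 and 0.07, and the sign of each turned in at least 1 alternative. Zfp142 was at 59.2 CPM in the WT and 56.7, 56.6 and 60.7 CPM in the subclones. Zfp451 was at 34.7 CPM against 26.3, 39.3 and 37.1 CPM. In all 5 the WT lay within the range of the subclones. Their mean levels ran from 21.7 CPM (Zfp704) to 113 CPM (Zfp598). With 1 WT library, such values do not show that the levels were equal.

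The threshold of 200 summed counts fell between Zfp112 (200), Zfp131 (204) and Zfp148 (207) on the inner side and Zfp445 (198), Zfp772 (198) and Zfp472 (197) on the outer side. Of the 113 Zfp genes under it, 66 had enough counts to be tested, with a median log2 fold change of -0.177. Zfp566, Zfp707l1 and Zfp799 rose among these and Zfp575 fell. Thus 3 of the 66 rose and 1 fell, beside 8.62% and 5.17% over all genes tested. The rule that weights both genotypes equally gave 21 genes that rose and 4 that fell.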

How the data were processed

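The authors sequenced poly(A) RNA with a kit that does not mark strand and, per the study's methods, removed noise and adaptors with the FASTX toolkit. The submitters' processing notes name HISAT2 2.0.5 and featureCounts 1.5.0-p3. The genome build is not given in the sources used here, so coordinates are those of the deposited annotation. The authors deposited raw counts per gene and FPKM values, of which counts gave the tests and FPKM the levels compared between genes.

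Tests used edgeR 4.0.16 (R 4.3.3; filterByExpr, minimum count 10, TMM, quasi-likelihood test, Benjamini-Hochberg over all 15028 genes tested), on 1 WT and 3 Thop1-KO libraries grouped by the genotype label. The dispersion comes from the subclones alone. The study's own test was DESeq2, which was run as an alternative (1.42.0), beside other scalings and filters, limma 3.58.1 on log2 FPKM with a pseudocount of 1 or of 0.1, offsets for gene length by loess (span 0.3), other member thresholds, and leaving out each subclone. The fit was tested on simulated data. No pair of libraries agreed within sampling noise by a chi-square test of counts. Totals of 15405499 to 17936544 counts limit genes of few counts, and the counting interval covers counting error only.

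The members, the role lists and the tests were chosen with earlier results of these data known. Named genes are Thop1, the members of the role lists, up to 10 called members with the largest log2 fold change in each direction, the 5 of highest mean FPKM, the 3 on each side of the count threshold, the 3 that varied most among subclones, the 5 of smallest change among the 50 of highest mean CPM, and the called genes of the corepressor list. The other 13 called members, the chromosome 1 and 4 runs, overlapping genes and the called Zfp genes under the threshold were named after their values were seen. Of the listed genes, 8 have no row in the table under their symbol and were not analysed here. Promoter sequences are from RefSeq (GRCr8). Python 3.11.15, pandas 2.3.3, numpy 2.4.6, scipy 1.17.1 and matplotlib 3.10.9 served for the rest.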

Additional observations from a re-analysis of the deposited data

How the results depend on the processing

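All 26 called members kept their direction in the alternatives run, and 2 of them, Zfp212 and Zfp710, were called in all 13. The scaling moved the median of all genes tested from 0.056 to between -0.04 (upper quartile) and 0.14 (length correction), and that of the members to between 0.10 and 0.26. Leaving out 1 subclone moved the counts of members to 7 to 40 higher and 0 to 12 lower, with 418 to 5572 genes called in all against 2072. With #2 left out these were 40, 12 and 5572, and with #3 left out 7, 0 and 418. Limma on log2(FPKM + 1) called 15 members higher, and without a filter on low values 3 higher, 1 lower and 872 genes in all, 38.1% of them higher against 62.5% in the edgeR fit. Limma on log2(FPKM + 0.1) called 1 lower. DESeq2 called 3006 genes in all. Choosing members by the mean of both genotypes (at least 3 CPM) gave a median of 0.059. The cause of these shifts was not tested. The other rules for members and the other scalings and filters left the counts within 1.5 times of 23 and 3.

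Genes near 0 changed sign. Library size scaling gave Zfp142 0.039, Zfp451 0.057 and Zfp598 0.034, and no filter gave Zfp451 0.002. Upper quartile scaling gave Zfp668 -0.052 and Zfp704 -0.039, and the length correction gave Zfp668 -0.05. Limma on log2(FPKM + 0.1) gave Zfp112 -0.001 and Zfp622 -0.058. With 1 subclone left out the values ranged from -0.14 to 0.67 for Zfp112, -0.445 to 0.092 for Zfp346, -0.10 to 0.34 for Zfp36, -0.13 to 0.12 for Zfp451, -0.068 to 0.002 for Zfp598, -0.64 to 0.49 for Zfp622, -0.05 to 0.11 for Zfp668 and -0.10 to 0.27 for Zfp704. No paired analysis was possible because the WT has a single library, which shares at most 1 replicate number with the subclones.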
